A study of Mus musculus with 11 samples.

Results

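The genes described here are 43 genes of the mitotic spindle, its checkpoint and cytokinesis, measured on 11 Illumina BeadChip arrays of cells sorted from mouse fetal gonads. The members were all probes that the probe annotation gives to these genes and that had a detection p below 0.01 on at least 2 of the 11 arrays. Of 90 probes named for the 43 genes, 76 passed, out of 21943 passing probes among the 45281 on the array. They stood for 40 genes of the 11598 genes tested. Ccnb1 had no named probe and was not analysed here. The only probe of Cenpe was detected on 1 array and the only probe of Racgap1 on 0 arrays, so both were left out. A gene was represented by its passing probe with the highest mean signal, and 27 of the 40 genes had several.

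Per the labels, germ cells were sorted by fluorescence from gonads on green fluorescent protein under Pou5f1 (Oct4), a gene of pluripotent and fetal germ cells. GFP-positive germ cells came from embryonic days E11.5, E13.5 and E15.5, with 3 replicates for each day. Embryos were labelled male at the later stages and male/female at E11.5. GFP-negative cells of male E13.5 gonads, called non-germ cells here, had 2 replicates and serve as the reference at that stage. All embryos came from a cross of (CBA/CaJ X C57BL/6J)F16+ with Hsd:ICR(CD-1) mice. The number of embryos behind each replicate is not stated, and the p-values measure the spread between these samples. Sex and stage cannot be told apart where E11.5 is compared, since that stage alone was labelled male/female.

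Entry into mitosis is driven by CDK1 bound to cyclin B, and the Polo and Aurora kinases then build the spindle and prepare the kinetochores, the protein platforms on each centromere that bind spindle microtubules. Unattached kinetochores keep the spindle assembly checkpoint on, which holds back CDC20 and so the anaphase-promoting complex. Once that complex acts, separase cuts cohesin between sister chromatids and the central spindle guides cytokinesis. Fetal germ cells of the mouse divide by mitosis when they arrive in the gonad, and in males they then stop dividing and rest in G1 or G0 until after birth. Transcripts of many mitotic genes rise and fall with the cell cycle.

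Values are background-corrected, quantile-normalized log2 intensities, here called log2 signals, and differences are differences of group means on that scale with the standard error (SE) of the limma fit. A gene was called where its Benjamini-Hochberg adjusted p over all 11598 genes was below 0.05. Precision is limited by the number of arrays. Between 14860 and 18657 probes were detected per array. Germ cell markers averaged at least 10.99 on each of the 9 germ cell arrays and 5.39 and 5.37 on the 2 non-germ arrays, with 10 of 10 detected on each germ cell array and 2 of 10 on each non-germ array.

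Replicate 2 at E15.5 stood apart from the other germ cell arrays. Its log2 signals correlated at 0.912 and 0.926 with those of the other E15.5 replicates, which correlated at 0.972 with each other, and replicates of the other groups correlated at 0.977 to 0.986. Interstitial cell markers averaged 6.71, 10.15 and 6.75 in E15.5 replicates 1, 2 and 3, against 5.65 to 6.41 at E11.5 and E13.5, and 11.03 and 11.02 in non-germ replicates. Of the 12 measured, 5, 12 and 6 were detected at E15.5, 3 to 6 on the earlier germ cell arrays, and 12 on each non-germ array. Sertoli cell markers averaged 6.08, 8.76 and 6.85 in the same 3 E15.5 replicates, and 8.98 and 9.38 in non-germ replicates. Erythroid markers averaged 6.24, 8.90 and 6.48 in E15.5 replicates 1, 2 and 3, against 5.16 to 5.49 at E13.5, and 12.36 and 9.59 in non-germ replicates. Germ cell markers averaged 11.47, 10.99 and 11.54 at E15.5, against at least 11.79 at E13.5, and 5 of 10 were called lower and 1 higher at E15.5. The main counts that rest on E15.5 are also given without replicate 2, and the part of these markers in single results was not tested.

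Between E13.5 and E15.5, 28 of the 40 mitotic genes fell and 0 rose, where 21.4% of all genes tested were called lower and 21.2% higher. The median difference over the 40 genes was -1.09, and over all genes tested 0.02. It was -0.98 with Ccnb2 and Nuf2, which were not detected at E15.5, at the smallest fall that their signals allow. Without E15.5 replicate 2, 27 were called lower and 0 higher. The mean log2 signal of the 40 genes ran from 9.62 to 9.74 on the E11.5 arrays, 9.59 to 9.71 at E13.5, and 8.64 to 8.72 at E15.5, so the E15.5 arrays lay apart from both earlier stages. The non-germ arrays had 8.05 and 8.50. In bulk samples fewer dividing cells, less RNA per cell and a larger share of other cells cannot be told apart. Leaving out replicate 2 does not settle this. Interstitial markers averaged 6.71 and 6.75 in E15.5 replicates 1 and 3, against 5.68 to 5.98 at E13.5. Among them Pdgfra had 9.80 and 10.04, against 6.39 to 7.34, while Col1a2 had 5.70 and 4.93, against 5.05 to 5.86. The part of other cells in the fall was not tested. Of the genes called, 20 were at least 2-fold lower at E15.5, Ccnb2 by that bound, and for 32 of the 40 every E15.5 array lay below every E13.5 array, which held for 25.6% of all genes tested. Without E15.5 replicate 2 these counts were again 20 and 32, the last against 30.9% of all genes.

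**Figure D1:**
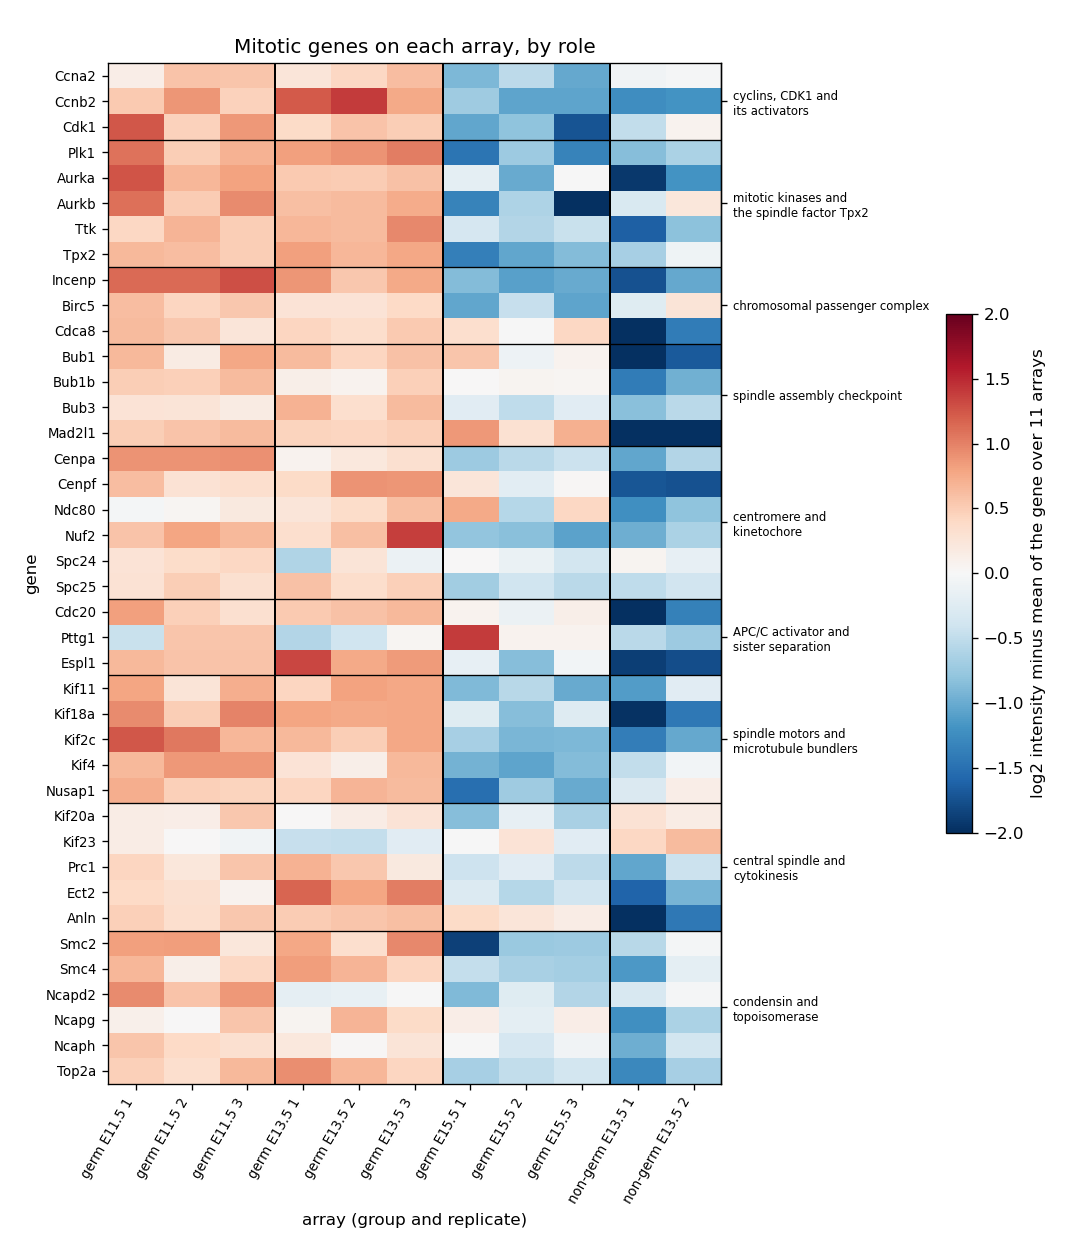
Each row is a mitotic gene and each column an array, grouped as germ cells at E11.5, E13.5 and E15.5 and non-germ cells at E13.5. Colour gives the log2 signal minus the mean of the gene over the 11 arrays, with the scale ending at 2 units either way, and genes with 2 roles are drawn once. Most rows are blue in the 3 E15.5 columns, with Mad2l1, Cdca8 and Anln among the exceptions.

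The promoters shown are those of the 4 members with the largest fitted falls to E15.5 among those with an entry in the promoter table, because many mitotic promoters are known to carry a cell cycle gene homology region (CHR), with the core TTTGAA, and CCAAT boxes, to which NF-Y binds. The RefSeq table (GRCm38.p6), which gives 250 bases before and 50 after a gene's start, had an entry for 36 of the 43 genes. Both strands were searched for TTTGAA and CCAAT, which read TTCAAA and ATTGG on the other strand and can overlap by 1 base. TTTGAA was found in 26 of the 36 member promoters (72.2%), against 11.9% of 9375 promoters of tested genes and 18.1% of all 27025 listed. CCAAT was also in 26 of 36 (72.2%), against 39.2% of the tested genes' promoters and 37.9% of all. Both were in 23 (63.9%), against 5.01% and 7.12%. In 24 of 36 (66.7%) a TTTGAA started within 50 bases of the gene start, against 3.01% of the tested genes' promoters. A match is a description of letters and neither a site nor a cause, and a window without one says nothing of the factor. Capitals mark TTTGAA and CCAAT on either strand in the windows of Plk1 (chr7:122159185-122159484, plus strand), Ccnb2 (chr9:70421505-70421804, minus strand), Smc2 (chr4:52438971-52439270, plus strand) and Nuf2 (chr1:169531415-169531714, minus strand), each written 5′ to 3′ along its gene.
Plk1: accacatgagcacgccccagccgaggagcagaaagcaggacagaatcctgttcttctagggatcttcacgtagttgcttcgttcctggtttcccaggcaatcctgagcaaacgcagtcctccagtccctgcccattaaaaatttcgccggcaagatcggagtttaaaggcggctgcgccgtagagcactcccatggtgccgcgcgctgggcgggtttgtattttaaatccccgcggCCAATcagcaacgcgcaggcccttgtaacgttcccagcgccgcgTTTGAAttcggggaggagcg
Ccnb2: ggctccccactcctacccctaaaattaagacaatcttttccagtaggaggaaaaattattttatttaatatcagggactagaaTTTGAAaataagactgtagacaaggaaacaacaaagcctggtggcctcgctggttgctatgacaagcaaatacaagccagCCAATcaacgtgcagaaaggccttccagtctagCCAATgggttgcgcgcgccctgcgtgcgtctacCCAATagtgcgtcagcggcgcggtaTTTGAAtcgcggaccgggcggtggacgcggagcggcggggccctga
Smc2: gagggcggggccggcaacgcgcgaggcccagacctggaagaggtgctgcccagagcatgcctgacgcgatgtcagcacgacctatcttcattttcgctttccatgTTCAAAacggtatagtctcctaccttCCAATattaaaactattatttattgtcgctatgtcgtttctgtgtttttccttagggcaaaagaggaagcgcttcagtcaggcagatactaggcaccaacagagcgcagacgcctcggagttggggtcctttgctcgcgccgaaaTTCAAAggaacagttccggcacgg
Nuf2: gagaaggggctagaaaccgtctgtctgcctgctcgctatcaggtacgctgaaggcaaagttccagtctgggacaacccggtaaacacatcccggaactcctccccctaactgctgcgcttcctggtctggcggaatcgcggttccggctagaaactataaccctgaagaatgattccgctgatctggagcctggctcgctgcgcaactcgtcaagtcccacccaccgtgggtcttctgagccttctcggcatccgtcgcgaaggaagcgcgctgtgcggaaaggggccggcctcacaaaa
Aurkb, Tpx2 and Incenp, with larger fitted falls than Nuf2, had no entry. Ccnb2 and Nuf2 were not detected at E15.5, so their place in this order is not measured. Plk1, Ccnb2 and Smc2 held both motifs and Nuf2 neither. With the first base of the gene as 0, the 3 CCAAT of Ccnb2 began at -87, -54 and -21 and its TTTGAA at -167 and 4, and in Plk1 CCAAT began at -14 and TTTGAA at 30. Among the members called lower at E15.5, 17 of the 22 with an entry held both motifs (77.3%), and among the measured members not called, 5 of 11 did (45.5%). Taken singly, TTTGAA was in 81.8% and 63.6% of these promoters and CCAAT in 77.3% and 54.5%. These differences were not tested. Mad2l1, Ncaph and Pttg1, which were not called lower than at E13.5, held neither, while Cdca8, Bub1b, Kif23, Ncapd2 and Ncapg, also not called, held both. Birc5, Kif18a and Nusap1, which were called lower, held neither motif, as did Nuf2.

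All 3 measured members among the cyclins and CDK1 were lower at E15.5 than at E13.5. Ccnb2, cyclin B2, the partner of CDK1 in mitosis, had log2 signals of 7.0, 7.37 and 6.94 on the E11.5 arrays, 7.70, 7.87 and 7.24 on the E13.5 arrays, 5.76, 5.43 and 5.42 on the E15.5 arrays, and 5.24 and 5.29 in non-germ cells. Its probe was detected on every germ cell array at E11.5 and E13.5 but on none at E15.5 (0 of 3) or in non-germ cells (0 of 2), so its level there has only a bound. It was at least 3.07-fold lower at E15.5 than at E13.5 (limma adjusted p = 2.87e-05) and, at E13.5, at least 3.44-fold higher in germ cells than in their non-germ neighbours (adjusted p = 1.39e-05). These bounds compare the measured mean with, on each array without detection, the lowest signal that counted as detected there or the probe's own, whichever was higher. Here and below, an adjusted p beside a bound is that of the fitted difference and does not test the bound.

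Cdk1, the kinase that drives mitotic entry, had log2 signals of 9.64, 8.86 and 9.27 on the E11.5 arrays, 8.79, 8.98 and 8.89 on the E13.5 arrays, 7.37, 7.60 and 6.67 on the E15.5 arrays, and 7.91 and 8.48 in non-germ cells. The 3 E15.5 arrays lay below all other arrays, and the difference between E15.5 and E13.5 was -1.67 ± 0.27 (SE, limma adjusted p = 0.000747). A further Cdk1 probe with a lower signal differed by only -0.16 ± 0.28 between the same stages (adjusted p = 0.683 in a fit of all passing probes), so the fall of Cdk1 rests on 1 of its probes. Ccna2, cyclin A2, which acts in S phase and early mitosis, averaged 11.24 ± 0.24 for E11.5, 11.25 ± 0.19 for E13.5, 10.01 ± 0.26 for E15.5 and 10.78 ± 0.04 for non-germ cells (SD). The difference between E15.5 and E13.5 was -1.24 ± 0.19 (adjusted p = 0.000457). Between germ and non-germ cells neither passed the threshold, with 0.47 ± 0.21 for Ccna2 (adjusted p = 0.0785) and 0.69 ± 0.31 for Cdk1 (adjusted p = 0.0747).

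All 5 measured mitotic kinases and spindle activators were lower at E15.5 than at E13.5, with a median difference of -1.85. Plk1, the Polo kinase that acts at centrosomes, kinetochores and the midbody, had log2 signals of 11.64, 11.05 and 11.25 on the E11.5 arrays, 11.38, 11.45 and 11.57 on the E13.5 arrays, 9.09, 9.83 and 9.22 on the E15.5 arrays, and 9.71 and 9.93 in non-germ cells. The 3 E15.5 arrays lay more than 1 log2 unit below all earlier germ cell arrays, and the difference from E13.5 was -2.09 ± 0.22, a 4.25-fold fall (limma adjusted p = 4.99e-05). Aurkb, Aurora B, the kinase that corrects faulty attachments, had log2 signals of 9.73, 9.14 and 9.58 on the E11.5 arrays, 9.24, 9.26 and 9.37 on the E13.5 arrays, 7.30, 8.02 and 6.15 on the E15.5 arrays, and 8.33 and 8.85 in non-germ cells. Its difference was -2.13 ± 0.39 (adjusted p = 0.00135), the largest fitted difference of the 40, where that of Ccnb2 has only a bound, and with the widest spread among the E15.5 arrays of the genes in this group.

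Tpx2, which activates Aurora A on spindle microtubules, had log2 signals of 9.18, 9.15 and 9.03 on the E11.5 arrays, 9.36, 9.20 and 9.31 on the E13.5 arrays, 7.16, 7.50 and 7.67 on the E15.5 arrays, and 7.87 and 8.45 in non-germ cells. The 3 E15.5 arrays lay below all other arrays, non-germ cells included. It fell by 1.85 on the log2 scale (adjusted p = 4.21e-05). Ttk (MPS1), the kinase that starts checkpoint signalling, differed by -1.21 ± 0.21 (adjusted p = 0.000994). Aurka, Aurora A, the centrosome kinase, differed by -0.94 ± 0.28 (adjusted p = 0.021), and its call ended without E15.5 replicate 2, where the difference was -0.64 (adjusted p = 0.0524), and without E13.5 replicate 2 or 3. Against the non-germ cells, Aurka, Ttk, Plk1 and Tpx2 were higher in germ cells at E13.5 by 2.11, 1.98, 1.65 and 1.13, and Aurkb, with 0.70 ± 0.43, did not pass (adjusted p = 0.19).

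The chromosomal passenger complex brings Aurora B to centromeres and later to the central spindle, and 3 of its 4 members, Aurkb included, fell. Incenp, the scaffold, had log2 signals of 10.45, 10.46 and 10.61 on the E11.5 arrays, 10.20, 9.86 and 10.08 on the E13.5 arrays, 8.45, 8.23 and 8.31 on the E15.5 arrays, and 7.57 and 8.30 in non-germ cells. The germ cell stages did not overlap and were lower at each later stage, and the E15.5 arrays overlapped the non-germ arrays. The difference of E15.5 from E13.5 was -1.71 ± 0.19 (limma adjusted p = 7.52e-05). Birc5, survivin, a targeting subunit, averaged 11.85 ± 0.09 for E11.5, 11.63 ± 0.08 for E13.5, 10.47 ± 0.34 for E15.5 and 11.33 ± 0.35 for non-germ cells (SD) and differed by -1.16 ± 0.20 (adjusted p = 0.000902). Cdca8, borealin, the other targeting subunit, averaged 9.98 ± 0.21 for E11.5, 9.95 ± 0.09 for E13.5, 9.76 ± 0.23 for E15.5 and 7.79 ± 0.46 for non-germ cells, and its difference of -0.19 ± 0.20 did not pass (95% interval -0.64 to 0.26, adjusted p = 0.479). Cdca8 was nonetheless higher in E13.5 germ cells than in non-germ cells by 2.16 ± 0.23 (adjusted p = 2.55e-05) and Incenp by 2.11 ± 0.22 (adjusted p = 2.32e-05), and Birc5 did not pass with 0.30 ± 0.22.

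Of the 5 checkpoint genes, Ttk and Bub3 fell between E13.5 and E15.5, and Bub1, Bub1b and Mad2l1 did not pass, although all 5 were higher in E13.5 germ cells than in non-germ cells. Mad2l1 (MAD2), which binds and holds back CDC20, had log2 signals of 10.33, 10.40 and 10.46 on the E11.5 arrays, 10.28, 10.26 and 10.32 on the E13.5 arrays, 10.71, 10.14 and 10.54 on the E15.5 arrays, and 6.96 and 7.78 in non-germ cells. Every germ cell array, of all 3 stages, lay more than 2 log2 units above both non-germ arrays. The E15.5 arrays overlapped both earlier stages, while the E13.5 arrays lay just below those of E11.5. The difference of E15.5 from E13.5 was 0.18 ± 0.22 (95% interval -0.31 to 0.66, limma adjusted p = 0.549), whereas that between germ and non-germ cells was 2.92 ± 0.24 (adjusted p = 6.37e-06), the largest difference of the 40 genes.

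Bub1b (BUBR1), a subunit of the inhibitor that checkpoint signalling makes, had log2 signals of 9.70, 9.69 and 9.83 on the E11.5 arrays, 9.33, 9.28 and 9.68 on the E13.5 arrays, 9.22, 9.25 and 9.24 on the E15.5 arrays, and 7.81 and 8.25 in non-germ cells. E15.5 differed from E13.5 by -0.19 ± 0.17 (95% interval -0.56 to 0.18, adjusted p = 0.384). Bub1, a kinase of kinetochores, differed by -0.38 ± 0.22 (adjusted p = 0.194) and was higher in germ cells than in non-germ cells by 2.44 ± 0.25 (adjusted p = 2.2e-05). A dimmer Bub1 probe fell by 1.55 between E11.5 and E13.5 (adjusted p = 0.0203), where the probe used differed by 0.02. Bub3, which recruits BUB1 and BUBR1, averaged 9.94 ± 0.06 for E11.5, 10.26 ± 0.20 for E13.5, 9.38 ± 0.16 for E15.5 and 9.01 ± 0.21 for non-germ cells (SD) and differed by -0.88 ± 0.16 between E15.5 and E13.5 (adjusted p = 0.0015).

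**Figure D2:**
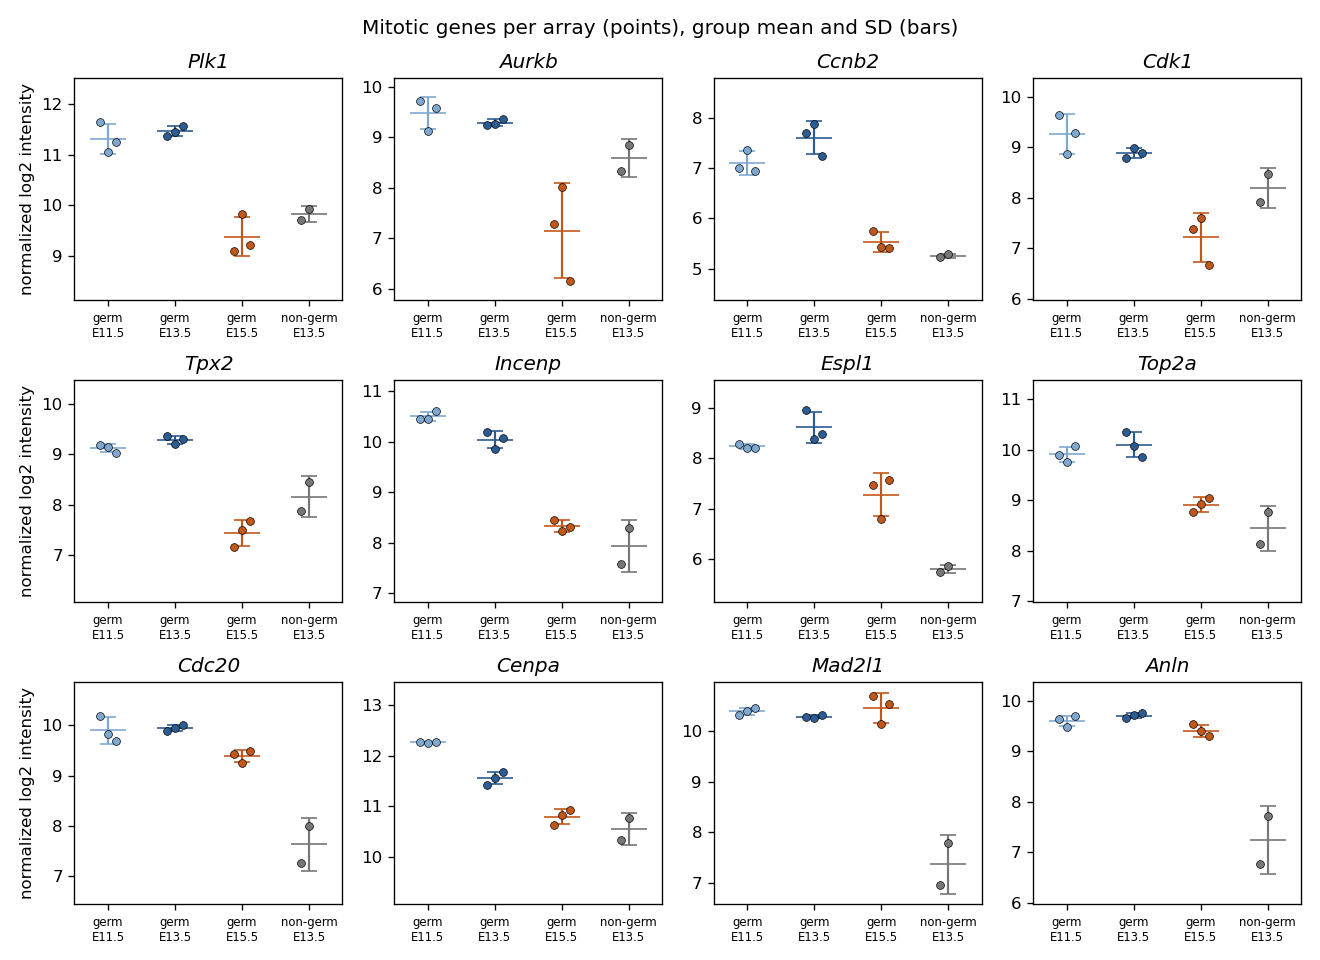
Points are the log2 signal on each array for 12 of the genes, in germ cells at E11.5, E13.5 and E15.5 and in non-germ cells at E13.5, with the group mean and SD as bars. The vertical axes differ in level and share a span of 4.4 log2 units. Plk1, Aurkb, Ccnb2, Cdk1, Tpx2 and Incenp drop at E15.5, whereas Mad2l1 and Anln stay above the non-germ arrays on every germ cell array.

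Of the 6 measured centromere and kinetochore genes, 4 were lower at E15.5 than at E13.5. Cenpa, the histone H3 variant that marks centromeres, had log2 signals of 12.26, 12.26 and 12.28 on the E11.5 arrays, 11.43, 11.57 and 11.68 on the E13.5 arrays, 10.62, 10.82 and 10.92 on the E15.5 arrays, and 10.32 and 10.76 in non-germ cells. Its values were lower without overlap at each later stage, with differences of -0.71 ± 0.16 between E11.5 and E13.5 (limma adjusted p = 0.0115) and -0.77 ± 0.16 between E13.5 and E15.5 (adjusted p = 0.00311). The 2 steps did not pass a test of their difference, at -0.06 ± 0.28 (adjusted p = 0.892). Nuf2, of the NDC80 complex that grips microtubule ends, averaged 6.77 ± 0.11 for E11.5, 6.88 ± 0.54 for E13.5, 5.20 ± 0.15 for E15.5 and 5.29 ± 0.24 for non-germ cells (SD), and the probe used was not detected on any E15.5 array (0 of 3) or non-germ array (0 of 2), so it was at least 1.86-fold lower at E15.5 than at E13.5 (adjusted p = 0.00036). Its dimmer probe was detected on 1 E15.5 array.

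Spc25, another subunit of that complex, differed by -1.01 ± 0.15 (adjusted p = 0.000337), and Cenpf, a large kinetochore protein of G2 and M phase, by -0.70 ± 0.19 (adjusted p = 0.013), a call that ended without E13.5 replicate 2 or 3. Cenpf was detected on every germ cell array and on 0 of 2 non-germ arrays, and was at least 5.09-fold higher in germ cells at E13.5 (adjusted p = 8.28e-06). Ndc80, the subunit that names the complex, averaged 7.15 ± 0.12 for E11.5, 7.48 ± 0.18 for E13.5, 7.29 ± 0.69 for E15.5 and 6.07 ± 0.30 for non-germ cells and did not pass at -0.20 ± 0.29 (adjusted p = 0.621). Its E15.5 replicates had 7.84, 6.51 and 7.50, and without replicate 2 the difference was 0.19 (adjusted p = 0.473). Spc24 gave -0.01 ± 0.21 by its brightest probe (adjusted p = 0.972), which had log2 signals of 12.42 to 13.45 in all groups, but its other probe, detected on 3 of 3 E13.5 and 0 of 3 E15.5 arrays, was at least 1.78-fold lower at E15.5 (adjusted p = 0.000594 in the fit of all passing probes) and was higher in germ cells than in non-germ cells by 1.19. The 2 probes of Spc24 thus disagreed on both comparisons.

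Of the 3 genes around sister chromatid separation, Cdc20 and Espl1 fell and Pttg1 did not pass. Espl1, separase, the protease that cuts cohesin, had log2 signals of 8.29, 8.21 and 8.21 on the E11.5 arrays, 8.97, 8.39 and 8.49 on the E13.5 arrays, 7.48, 6.79 and 7.58 on the E15.5 arrays, and 5.75 and 5.87 in non-germ cells. Its E15.5 arrays lay below all earlier germ cell arrays and above both non-germ arrays. It fell between E13.5 and E15.5 by 1.34 ± 0.22 on the log2 scale (limma adjusted p = 0.000885) and was higher in germ cells than in non-germ cells by 2.81 ± 0.25 (adjusted p = 9.65e-06). Cdc20, the activator of the anaphase-promoting complex, had log2 signals of 10.18, 9.83 and 9.68 on the E11.5 arrays, 9.88, 9.94 and 10.00 on the E13.5 arrays, 9.42, 9.25 and 9.48 on the E15.5 arrays, and 7.27 and 8.00 in non-germ cells. The 3 E15.5 arrays lay below the earlier ones by under 1 log2 unit, and the difference of -0.56 ± 0.21 was at the edge of the threshold (adjusted p = 0.0491, 0.188 at the highest over 21 settings), with the call kept in 7 of them. Pttg1, securin, which inhibits separase, was detected on 2 arrays, 1 of them at E15.5, and did not pass in any comparison.

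All 5 measured motors and microtubule bundlers were lower at E15.5 than at E13.5, with a median difference of -1.46, and all 5 were higher in E13.5 germ cells than in non-germ cells. Nusap1, which bundles spindle microtubules, averaged 10.68 ± 0.15 for E11.5, 10.71 ± 0.13 for E13.5, 9.05 ± 0.40 for E15.5 and 10.05 ± 0.29 for non-germ cells (SD) and differed by -1.66 ± 0.21 between E15.5 and E13.5 (limma adjusted p = 0.00016). Kif11 (EG5), the motor that pushes spindle poles apart, differed by -1.49 ± 0.25 (adjusted p = 0.000883). Kif2c (MCAK), which takes microtubules apart at centromeres, differed by -1.46 ± 0.19 (adjusted p = 0.000157), and Kif4, a motor of chromosome arms and the central spindle, by -1.31 ± 0.18 (adjusted p = 0.000271).

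Kif18a, which damps chromosome movements at the metaphase plate, had log2 signals of 9.46, 9.02 and 9.51 on the E11.5 arrays, 9.32, 9.27 and 9.29 on the E13.5 arrays, 8.28, 7.67 and 8.27 on the E15.5 arrays, and 6.55 and 7.10 in non-germ cells. By the probe used, its E15.5 values lay between those of earlier germ cells and those of non-germ cells, with no overlap on either side. This probe differed by -1.22 ± 0.22 between E15.5 and E13.5 (adjusted p = 0.00137) and by 2.47 ± 0.25 between germ and non-germ cells (adjusted p = 1.98e-05). The dimmer passing probes, near background at E15.5, averaged 5.68 and 5.74 there, against 6.23 and 5.56 in non-germ cells. The first averaged 8.34 at E11.5 and 7.10 at E13.5, where the probe used had 9.33 and 9.29. The other motors and Nusap1 stood less high over the non-germ cells, by 1.84 for Kif2c, 1.34 for Kif11, 0.66 for Nusap1 and 0.62 for Kif4.

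Of the 5 measured genes of the central spindle and cytokinesis, Ect2, Prc1 and Kif20a fell between E13.5 and E15.5, and Kif23 and Anln did not pass. Ect2, which activates RhoA at the cleavage plane, had log2 signals of 10.99, 10.91 and 10.67 on the E11.5 arrays, 11.76, 11.38 and 11.62 on the E13.5 arrays, 10.32, 10.02 and 10.21 on the E15.5 arrays, and 8.99 and 9.67 in non-germ cells. It was highest at E13.5 without overlap, and differed from E11.5 by 0.73 ± 0.20 there (limma adjusted p = 0.0296). That call ended without any single E11.5 replicate or without E13.5 replicate 1 or 3, with adjusted p up to 0.101. The later difference, of E15.5 from E13.5, was -1.40 ± 0.20 (adjusted p = 0.000323). Prc1, which cross-links antiparallel microtubules, differed by -0.87 ± 0.20 (adjusted p = 0.00601).

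Kif20a (MKLP2), a motor that carries the passenger complex to the midzone, had log2 signals of 9.78, 9.76 and 10.17 on the E11.5 arrays, 9.64, 9.78 and 9.92 on the E13.5 arrays, 8.78, 9.48 and 8.99 on the E15.5 arrays, and 9.93 and 9.78 in non-germ cells. Its difference was -0.69 ± 0.20 (adjusted p = 0.0178), with the call lost without E13.5 replicate 3, E15.5 replicate 1 or E15.5 replicate 3, and its germ and non-germ arrays at E13.5 overlapped. Anln, anillin, the scaffold of the contractile ring, had log2 signals of 9.63, 9.49 and 9.69 on the E11.5 arrays, 9.66, 9.71 and 9.75 on the E13.5 arrays, 9.54, 9.40 and 9.30 on the E15.5 arrays, and 6.78 and 7.73 in non-germ cells. All germ cell arrays lay above both non-germ arrays, with 2.46 ± 0.24 between germ and non-germ cells at E13.5 (adjusted p = 1.78e-05), and E15.5, whose arrays lay below those of E13.5 without overlap, differed by -0.30 ± 0.22 (95% interval -0.77 to 0.18, adjusted p = 0.297). A dimmer Anln probe did fall, by 0.74 ± 0.23 (adjusted p = 0.0268).

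Kif23 (MKLP1), the motor of the centralspindlin complex, had log2 signals of 12.07, 11.93 and 11.85 on the E11.5 arrays, 11.45, 11.44 and 11.69 on the E13.5 arrays, 11.92, 12.20 and 11.69 on the E15.5 arrays, and 12.33 and 12.55 in non-germ cells. It was the only member called lower in E13.5 germ cells than in non-germ cells, at -0.91 ± 0.19 (adjusted p = 0.00188), by its brightest probe. Its other 2 passing probes gave 0.47 ± 0.23 (adjusted p = 0.117) and 0.26 ± 0.30 (adjusted p = 0.504), and the call was lost when the passing probes were averaged, so its direction depends on the probe. Between E15.5 and E13.5 the probe used gave 0.41 ± 0.17 (adjusted p = 0.0743). From E11.5 to E13.5 the mean of the probe used went from 11.95 to 11.53. Those of the other 2 passing probes went from 10.92 to 9.96 and from 9.79 to 8.70.

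Condensin compacts chromosomes, and of its 5 subunits measured the 2 SMC ATPases fell while the 3 others did not pass by the probe used. Smc2 averaged 8.85 ± 0.35 for E11.5, 8.91 ± 0.32 for E13.5, 7.11 ± 0.66 for E15.5 and 7.92 ± 0.37 for non-germ cells (SD) and differed by -1.80 ± 0.33 between E15.5 and E13.5 (limma adjusted p = 0.00136). Smc4, its partner, differed by -1.25 ± 0.25 (adjusted p = 0.0022). The condensin I subunits gave -0.36 ± 0.23 for Ncapg (adjusted p = 0.242), -0.29 ± 0.18 for Ncaph (adjusted p = 0.224) and -0.45 ± 0.19 for Ncapd2 (adjusted p = 0.0797). That the SMC and non-SMC subunits differed in their change was not tested.

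Ncapd2 had log2 signals of 10.17, 9.79 and 10.09 on the E11.5 arrays, 9.04, 9.07 and 9.20 on the E13.5 arrays, 8.34, 8.98 and 8.63 on the E15.5 arrays, and 8.90 and 9.20 in non-germ cells. It fell between E11.5 and E13.5, at -0.91 ± 0.19 (adjusted p = 0.00772), and the 2 steps did not pass a test of their difference, at 0.46 ± 0.33 (adjusted p = 0.35). Without E15.5 replicate 2, the highest of that stage, the later step also passed at -0.62 (adjusted p = 0.0185). Top2a, topoisomerase II alpha, which untangles sister DNA, had log2 signals of 9.90, 9.76 and 10.06 on the E11.5 arrays, 10.35, 10.08 and 9.85 on the E13.5 arrays, 8.76, 8.92 and 9.05 on the E15.5 arrays, and 8.13 and 8.76 in non-germ cells. Its E15.5 arrays lay below every earlier germ cell array and near or above the non-germ arrays, with -1.18 ± 0.20 between E15.5 and E13.5 (adjusted p = 0.000966) and 1.65 ± 0.23 between germ and non-germ cells (adjusted p = 0.000134).

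**Figure D3:**
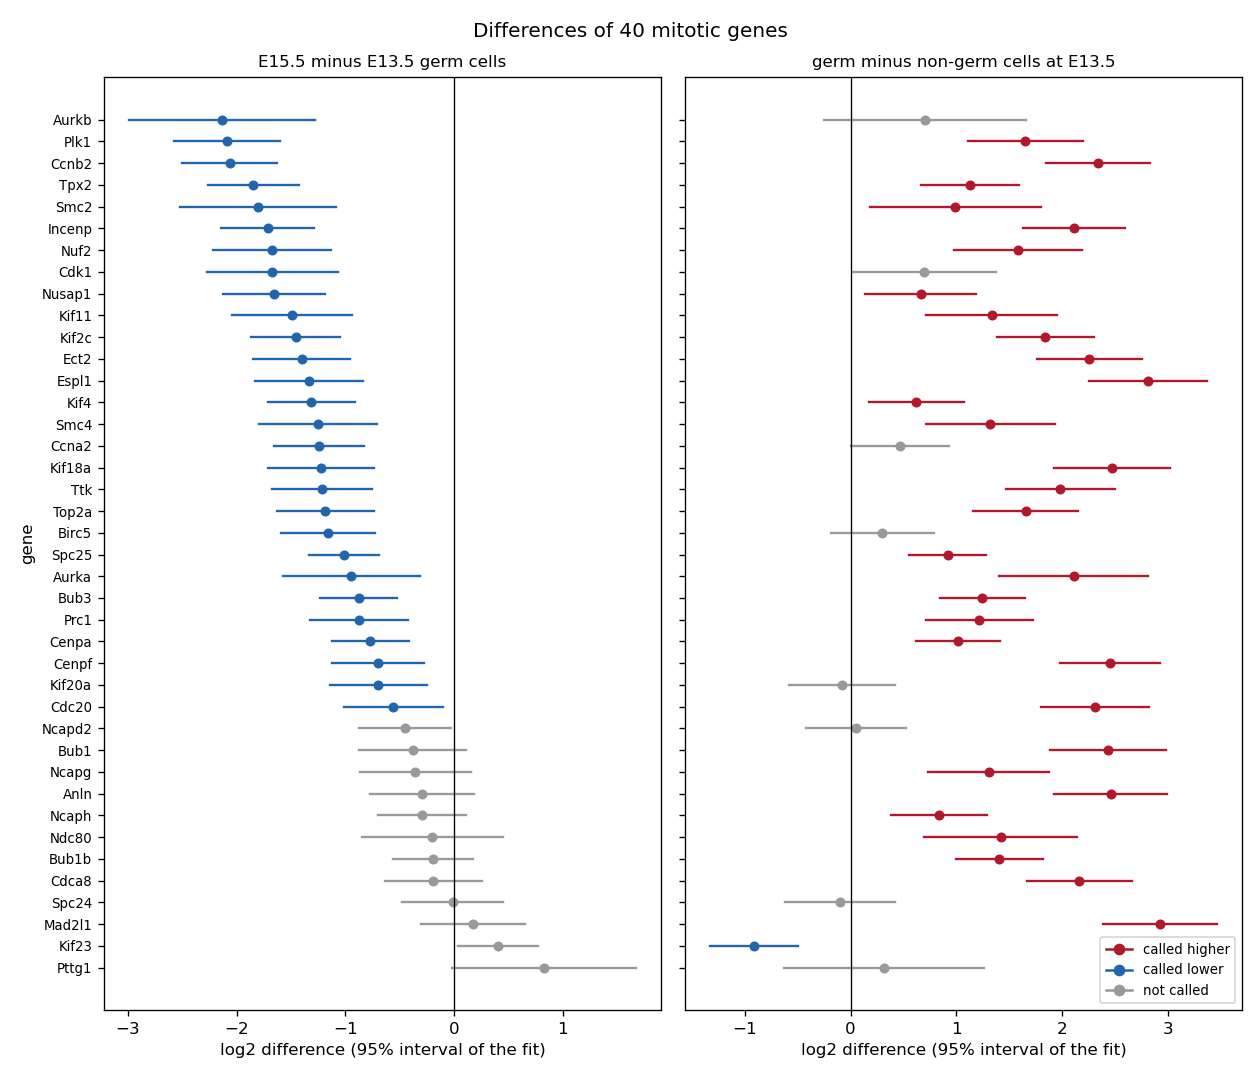
Each row is one of the 40 genes in the order of its difference between E15.5 and E13.5 germ cells, with the log2 difference and its 95% interval for E15.5 minus E13.5 on the left and germ minus non-germ cells at E13.5 on the right. Blue marks genes called lower, red genes called higher and grey those not called. Fitted values of Ccnb2 and Nuf2 on both sides, and of Cenpf on the right, rest on a group without detection, so the text gives them as bounds. On the left 28 are blue and 0 red, on the right 31 are red and 1, Kif23, is blue.

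Few of these genes changed in the earlier interval by the probe used. Between E11.5 and E13.5, 1 of 40 rose (Ect2) and 2 fell (Ncapd2 and Cenpa), where 10.8% of all genes tested were called higher and 7.94% lower, and the median over the 40 genes was 0.03. For 35 of the 40 the 95% interval of the difference lay within 2-fold either way. The test of the second interval minus the first called 19 genes lower and 0 higher, where 12.8% and 11.6% of all genes were called. Without E15.5 replicate 2 it called 21 lower and 0 higher. Of the genes detected in all 3 stages, Plk1 gave -2.24 ± 0.38 (adjusted p = 0.00236), Ect2 -2.13 ± 0.35 (adjusted p = 0.00192) and Tpx2 -2.01 ± 0.33 (adjusted p = 0.00182). Ccnb2 was also called (adjusted p = 0.000638), with no size given because it was not detected at E15.5. The E13.5 arrays enter both intervals. A change of any kind over the 3 stages was called by the limma F test for 28 of 40 genes, against 55.3% of all genes, and without E15.5 replicate 2 for 27, against 58.1%.

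Over the whole course, 29 of the 40 genes were lower at E15.5 than at E11.5 and 0 higher, where 24.2% of all genes tested were called lower and 25.7% higher, with a median of -0.99 over the 40 (-0.97 with Ccnb2 and Nuf2 at their bound) and 0.03 over all genes. Without E15.5 replicate 2, 28 were lower and 1, Ndc80, higher. The largest differences were -2.33 ± 0.39 for Aurkb (limma adjusted p = 0.000536), -2.17 ± 0.19 for Incenp (adjusted p = 9e-06), -2.04 ± 0.27 for Cdk1 (adjusted p = 0.000129) and -1.93 ± 0.22 for Plk1 (adjusted p = 4.36e-05). Ncapd2, Bub1b and Ncaph passed over this span but not between E13.5 and E15.5, at -1.37, -0.50 and -0.56, and the reverse held for Cdc20 and Cenpf. The call of Bub1b over this span ended without any single E11.5 replicate or without E15.5 replicate 1 or 3, that of Ncaph without E11.5 replicate 1 or 2 or E15.5 replicate 2, and that of Ect2 without E11.5 replicate 1. In 36 of 40 genes the lowest germ cell mean was that of E15.5, and the highest was that of E13.5 in 22, E11.5 in 16 and E15.5 in 2. The contrasts share arrays, so their calls are not independent.

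At E13.5, 31 of the 40 genes were higher in germ cells than in non-germ cells and 1 lower, where 30.8% of all genes tested were called higher and 26.2% lower. The median difference was 1.33 over the 40 genes (1.31 with the 3 not detected in non-germ cells at their bound) and 0.12 over all genes. For 35 genes every E13.5 germ cell array lay above both non-germ arrays and for 1 below them, which held for 40.6% and 34% of all genes. All 5 checkpoint genes and all 5 motors and bundlers were higher, but 1 of 3 cyclins and CDK1. The largest fitted differences were those of Mad2l1, Espl1, Kif18a and Anln, given above. The call of Kif4 ended without E13.5 germ cell replicate 3 or non-germ replicate 1, that of Nusap1 without E13.5 germ cell replicate 2 or 3 or non-germ replicate 1, that of Smc2 without E13.5 germ cell replicate 1 or 3 or either non-germ replicate, and that of Ncaph without non-germ replicate 1. All 4 calls also ended under cyclic loess normalization. Of the 28 genes that fell by E15.5, 23 were higher in E13.5 germ cells than in non-germ cells, and of the 12 not called, 8 were. Both comparisons use the E13.5 germ cell arrays, so these calls are not independent. The share of all genes with both calls was not computed, and a link between the calls was not tested. The 2 non-germ replicates, with erythroid marker means of 12.36 and 9.59, differed also in the mitotic genes: their means over the 40 genes were 8.05 and 8.50. The part of this difference in the result was not tested.

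**Figure D4:**
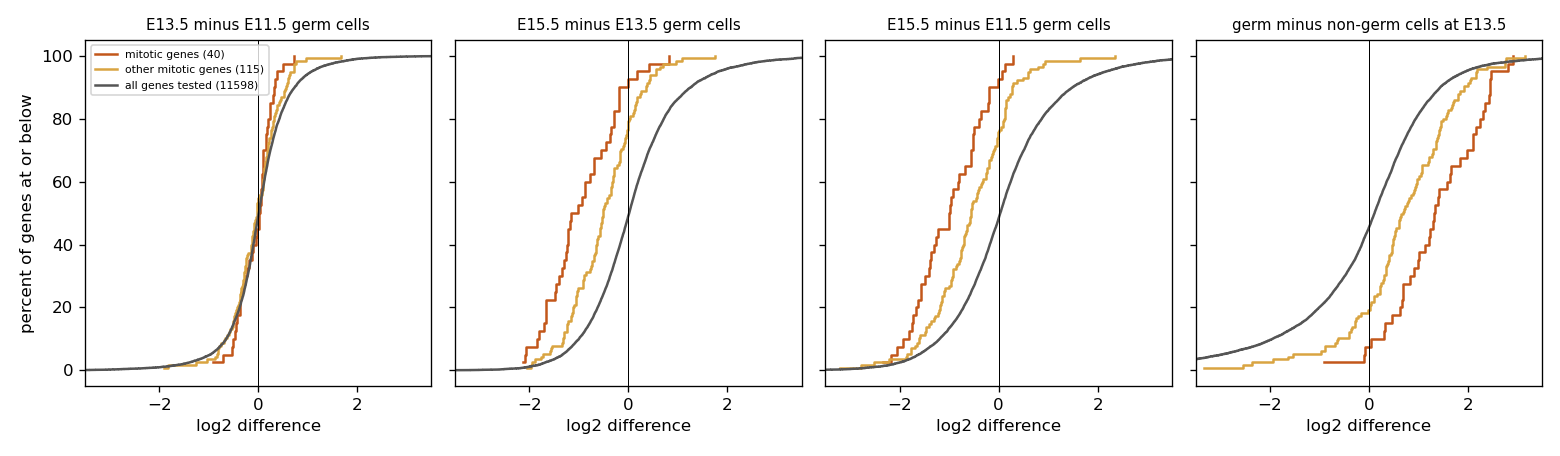
For each comparison, the curves give the percent of genes at or below a log2 difference for the 40 mitotic genes, the 115 other mitotic genes and all 11598 genes tested. The mitotic curve lies to the left of all genes for both comparisons with E15.5 (medians -1.09 and -0.99), close to it between E11.5 and E13.5 (0.03), and to the right for germ against non-germ cells (1.33).

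Most genes had several passing probes. With every passing probe tested, 46 of the 76 member probes were lower at E15.5 than at E13.5 and 0 higher, where 20.8% of all passing probes were lower and 17.5% higher, and without E15.5 replicate 2, 44 were lower and 0 higher. Of the 36 probes of these genes that were not the brightest, 32 had the sign of the brightest in that comparison. Between germ and non-germ cells 52 probes were higher and 1 lower, where 29.4% and 23.7% of all passing probes were, and 31 of 36 had the sign of the brightest. The probes were less alike between E11.5 and E13.5, where 9 were lower and 2 higher, against 6.74% and 8.55% of all passing probes, and 22 of 36 had the sign of the brightest. There a dimmer Kif11 probe differed by -1.01 ± 0.21 (adjusted p = 0.00733), against 0.08 ± 0.25 by the probe used, and of the dimmer Top2a probes 1 gave -1.06 ± 0.35 (adjusted p = 0.0672) and the other was lower (adjusted p = 0.0464) with no detection at E13.5. Exceptions named above were in Cdk1, Bub1, Spc24, Anln, Kif18a, Kif23 and Ncapd2, and that list is not complete. A dimmer Prc1 probe averaged 8.80 at E11.5, 8.04 at E13.5, 7.68 at E15.5 and 8.28 in non-germ cells. It thus lay lower in E13.5 germ cells than in non-germ cells, where the Prc1 probe used lay higher. A dimmer Cdca8 probe averaged 8.17 at E13.5 and 8.23 at E15.5, without the small fall of the probe used. A dimmer Cdc20 probe also gave -0.74 ± 0.34 between germ and non-germ cells (adjusted p = 0.0908), against 2.31 ± 0.23 by the probe used.

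A wider list of 129 further mitotic genes, in CDK1 regulation, the anaphase-promoting complex, the checkpoint, kinetochore, spindle, cytokinesis, and condensin and cohesin, had 115 measured genes. Between E13.5 and E15.5, 52 fell and 3 rose, where 21.4% of all genes tested were called lower and 21.2% higher. The median was -0.52, or -0.46 with the 8 genes detected at only 1 of the stages at their bound. By role, 8 of 14 in CDK1 regulation fell, 7 of 15 of the anaphase-promoting complex, 7 of 14 of the checkpoint, 12 of 21 of the kinetochore, 11 of 26 of the spindle, 4 of 13 of cytokinesis and 3 of 12 of condensin and cohesin. The count for condensin and cohesin was near the share of all genes. Without E15.5 replicate 2, 45 fell and 5 rose. Of the genes detected at both stages the largest falls were those of Cdca2 (repo-man), a phosphatase partner on chromatin, at -2.05 ± 0.26 (limma adjusted p = 0.000138), Ncaph2, a subunit of condensin II, at -1.90 ± 0.18 (adjusted p = 2.28e-05), and Ube2c, the ubiquitin-conjugating enzyme of the anaphase-promoting complex, at -1.77 ± 0.17 (adjusted p = 2.41e-05). Aurkc, the Aurora kinase of germ cells, was at least 2.46-fold lower (adjusted p = 0.000416) and Fbxo5 (EMI1), an inhibitor of the anaphase-promoting complex, at least 2.49-fold lower (adjusted p = 5.32e-05). Aurkc and Fbxo5 were detected on all 3 E13.5 arrays and on 0 of the 3 at E15.5.

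The 3 that rose were Cdc25b, Spag5 and Ncapd3. Cdc25b, a phosphatase that activates CDK1, had log2 signals of 7.43, 6.96 and 6.90 on the E11.5 arrays, 8.13, 7.44 and 7.52 on the E13.5 arrays, 9.45, 9.47 and 9.41 on the E15.5 arrays, and 9.43 and 9.02 in non-germ cells. The E15.5 arrays lay above all earlier germ cell arrays, at 1.75 ± 0.22 over E13.5 (adjusted p = 0.000151), and it was lower in E13.5 germ cells than in non-germ cells, at -1.53 ± 0.25 (adjusted p = 0.000399). Spag5 (astrin), a spindle protein, rose by 1.07 ± 0.17 (adjusted p = 0.000511), and Ncapd3, of condensin II, by 0.55 ± 0.18 (adjusted p = 0.0296). The 3 E15.5 arrays lay close together for both Cdc25b and Spag5 (8.37, 8.45 and 8.47 for Spag5).

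Between E11.5 and E13.5, 8 of the 115 rose and 10 fell, near the shares of all genes tested, 10.8% higher and 7.94% lower. The median was -0.03. Stag2, a cohesin subunit, rose by 1.68 ± 0.17 (limma adjusted p = 8.64e-05), and Arpp19, an inhibitor of the phosphatase PP2A in mitosis, and Nipbl, the cohesin loader, followed at 0.77 and 0.72. Septin9, of the septin filaments, Arhgef2 (GEF-H1), an exchange factor for RhoA, and Fbxo5 fell most, at -1.90, -1.82 and -1.26. Over the whole course from E11.5 to E15.5, 8 rose and 58 fell, and without E15.5 replicate 2, 9 rose and 54 fell. Of all genes tested, 25.7% were called higher and 24.2% lower over this span. Fbxo5 was at least 5.95-fold and Aurkc at least 4.34-fold lower, Cdca2 and Ncaph2 differed by -2.53 and -2.22, and Cdc25b, Stag2 and Numa1, a spindle pole protein, were higher by 2.34, 1.65 and 0.93.

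Between germ and non-germ cells at E13.5, 64 of the 115 were higher and 12 lower, where 30.8% and 26.2% of all genes tested were. The median was 0.69, or 0.63 with 8 genes at their bound. Cenpw, a centromere protein, Cdca5 (sororin), which protects cohesion, and Mybl2 (B-MYB), a transcription factor of mitotic genes, were highest at 3.15 ± 0.23, 2.78 ± 0.24 and 2.76 ± 0.20 (limma adjusted p = 2.58e-06, 8.01e-06 and 2.73e-06). The lowest were Ckap4, a protein of the endoplasmic reticulum membrane rather than of the spindle, at -3.32 ± 0.75, Septin9 at -2.54 ± 0.32 and Arhgef2 at -2.37 ± 0.44. In E15.5 replicates 1, 2 and 3 Ckap4 had log2 signals of 6.69, 9.91 and 7.06, against 11.03 and 11.43 in non-germ cells, so replicate 2 stood out here as in the interstitial markers.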

How the data were processed

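RNA of sorted cells was amplified and biotin-labelled before hybridization, per the labels' protocols. The main values were linear probe intensities, neither background-subtracted nor scaled between arrays, per the file headers. A detection p-value stands beside each intensity as deposited. The authors' other table holds intensities rescaled linearly within each array, by a method not given in the sources used here, and served only as an alternative.

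In R 4.3.3 with limma 3.58.1, background was corrected by neqc through the detection p-values, followed by an offset of 16, quantile normalization and log2. Probes with a detection p below 0.01 on at least 2 of 11 arrays were kept. Gene names came from the platform annotation (1 symbol for 34885 probes, several for 18, no entry for 10378), of which 99.8% matched RefSeq by Entrez number, and 3792 kept probes without a single name were left out. Where a gene had several kept probes, which held for 4439 genes, the one with the highest mean over all arrays was used. A linear model with 4 group means was fitted to all 11 arrays (7 residual and 3.54 prior degrees of freedom) with two-sided moderated tests and Benjamini-Hochberg adjustment over 11598 genes. The fit was also run on simulated data with independent noise of equal spread on all arrays. Those data held no outlying array, so they say nothing of how such an array affects the calls.

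The members and lists were chosen with earlier results of these data known. Values per array are given for a set of members fixed by role and for the 4 largest rises and falls past the threshold in each comparison, and of other mitotic genes the 3 largest each way are named, where falls against a group without detection have only a bound and no rank, so Ncaph2 and Ube2c were added after their values were seen. Alternatives were cyclic loess, no background correction, the authors' rescaled intensities, a stricter and no detection filter, the mean of a gene's probes, array weights, the replicate number as a block, only the arrays compared, and leaving out each array. Leaving out E15.5 replicate 2 before all steps was added after the data were seen.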

Additional observations from a re-analysis of the deposited data

How the results depend on the processing

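Over 21 settings, 24 of the 28 members called lower at E15.5 than at E13.5 kept their call in every setting, as did 26 of 29 for E15.5 against E11.5, 27 of 32 for germ against non-germ cells and 2 of 3 for E13.5 against E11.5. Apart from single arrays left out, calls between germ and non-germ cells ended under cyclic loess for Kif4, Nusap1, Smc2 and Ncaph, with the authors' values for Kif4, with the mean of probes for Kif4 and Kif23, and with no filter or the replicate block for Smc2. Over E15.5 against E11.5 they ended under cyclic loess for Bub1b and Ncaph and with array weights for Ncaph. The number of members called lower at E15.5 than at E13.5 ran from 24 to 29. Replicate numbers did not pair the samples: deviations of same-numbered arrays correlated at -0.11 to 0.13, and in 2 of 11 pairings of an array with another group the best correlation was with its own number. With the replicate block, 27 members were lower and 0 higher at E15.5 than at E13.5, 0 were higher at E13.5 than at E11.5, and 30 were higher in germ cells than in non-germ cells. Members lower at E13.5 than at E11.5 numbered 4 without background correction and 5 with the authors' rescaled values, and other mitotic genes lower there 16 and 18, against 10. With the mean of a gene's probes, 5 other mitotic genes were higher at E13.5 than at E11.5, against 8, and 0 members were lower in germ cells than in non-germ cells. At E15.5 against E13.5, Kif23 was the 1 member higher under cyclic loess, without background correction and without E15.5 replicate 3, and 9 other mitotic genes were higher under cyclic loess, against 3. With all steps repeated without E15.5 replicate 2, 5 other mitotic genes were higher than at E13.5 and 1 member, Ndc80, higher than at E11.5. Leaving out single arrays, members higher ran from 0 to 1 in each of the 3 germ cell comparisons. Other mitotic genes then ran from 2 to 10 higher and 4 to 14 lower at E13.5 against E11.5, from 2 to 5 higher at E15.5 against E13.5, and from 6 (without non-germ replicate 2) to 12 lower in germ cells than in non-germ cells. Members called in the second interval minus the first ran from 10 to 21, with 11, 11 and 10 without E13.5 replicates 1, 2 and 3.

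The median over the members was -0.16 with the mean of probes for E13.5 against E11.5. For E15.5 against E13.5 it was -0.69 without background correction, -0.63 with the authors' values and -0.93 with the mean of probes. For E15.5 against E11.5 it was -0.85 under cyclic loess, -0.64 without background correction, -0.64 with the authors' values and -1.14 with the mean of probes. For germ against non-germ cells it was 1.00 under cyclic loess, 0.90 without background correction and 0.85 with the authors' values, and 1.05 to 1.63 leaving out single arrays. Cyclic loess moved the median of all genes to -0.12 in germ against non-germ cells, where it was 0.12, with 40.5% in place of 54.0% of calls higher, and to 0.13 at E15.5 against E13.5, where it was 0.02, with 60.8% in place of 49.7% higher. The causes of these shifts were not tested. Among differences that did not pass in the main setting, signs turned in some setting for 13 of 37 members at E13.5 against E11.5 (Top2a, Kif11 and Cdc20 among them), 4 of 11 at E15.5 against E11.5, 3 of 12 at E15.5 against E13.5 and 3 of 8 in germ against non-germ cells. For E15.5 against E13.5, Bub1 was 0.0046 with the mean of probes, Ndc80 ran from -0.48 to 0.19 leaving out single arrays and was 0.19 with all steps repeated, and Spc24 was 0.11 under cyclic loess and ran from -0.23 to 0.19. For germ against non-germ cells, Spc24 was 0.12 with the authors' values, 0.55 with the mean of probes and 0.0019 with array weights, and ran from -0.30 to 0.12, Kif20a was 0.0757 with the authors' values, and Ncapd2 was -0.25 under cyclic loess and ran from -0.10 to 0.21. Groups of 2 and 3 arrays, signals near background for Ccnb2, Nuf2 and Pttg1, and probes that disagree within Cdk1, Kif23 and Spc24 limit the single values.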
